A study of Mus musculus with 12 samples.

Results

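The regions described here are the open-chromatin sites around 10 mouse genes of the epithelial to mesenchymal transition. Snai1, Snai2, Twist1, Zeb1, Zeb2, Cdh2, Vim and Fn1 are taken as the mesenchymal side (8 genes), and Cdh1 and Epcam as the epithelial side (2 genes). A summit, the position of the highest signal in an ATAC-seq peak, was given to a gene when that gene had the nearest end of any protein-coding gene within 100 kb, or when the summit lay inside the gene. Summits of all libraries closer than 250 bp were then joined into regions, which gave 104 member regions of 104822 in the whole series, 20 on the epithelial and 84 on the mesenchymal side.

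ATAC-seq marks accessible DNA by the insertion of Tn5 transposase. It was measured in 12 libraries from embryoid bodies, aggregates of differentiating mouse embryonic stem cells, grown by shaking in a mesodermal medium. There were 6 groups of 2 libraries. The Foxk1 KO line was sampled at day 3, day 5 and day 10, the iHA-Foxk1 line at day 3 and day 5 only, and the other day 10 libraries are labelled Control. All libraries are labelled NoDox, so the iHA-Foxk1 libraries are used as the control arm of days 3 and 5, and the Control libraries as that of day 10. The labels do not say which part of Foxk1, a forkhead transcription factor gene, was deleted or from how many clones the KO line came, so summit lists cannot check the knockout. Stem cells were kept on irradiated mouse embryonic fibroblasts, which were reduced by a plating step before differentiation. Nothing in the labels places the 2 libraries of a group in separate cultures, so the spread behind each p-value may be technical.

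The lists differed greatly in length. They held 53456 to 59006 summits at day 3, 14519 to 48391 at day 5 and 4028 to 10548 at day 10, and iHA-Foxk1 day 5 replicate 1 had the shortest list of days 3 and 5. Read depth is unknown. Regions and summits per gene were therefore compared between arms after each list had been cut to the same number of best-scoring summits (N), set by the shortest list in that comparison. Places in the list and summits per 10000 are given over full lists of unequal length, as descriptions that show no change between arms. Peak names in both KO day 5 lists carry the tag D7 against the label day 5, and day 10 names lack a duplicate-removal tag that the others carry, so day 10 and that change of processing cannot be told apart.

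In an epithelial to mesenchymal transition, cells give up cell-cell junctions and gain motility, as they do when mesoderm forms at gastrulation. Snai1, Snai2, Zeb1 and Zeb2 encode zinc finger repressors, and Twist1 a basic helix-loop-helix factor. The zinc finger repressors bind E-box elements in the promoters of epithelial genes such as Cdh1. Cdh1 encodes E-cadherin and Epcam an epithelial adhesion molecule, while Cdh2 encodes N-cadherin, Vim the intermediate filament vimentin and Fn1 the matrix protein fibronectin.

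Sequences upstream of the gene start are shown for 2 members, a repressor and an epithelial gene, because their windows hold the E-box letters CAGGTG (on the other strand, these letters read CACCTG) and because summits fall differently around them. They come from RefSeq (GRCm38.p6, the assembly of mm10), are the 250 bases before the start on the + strand, and have the E-box letters in capitals. The first is chr2:167537945-167538194 and the second chr17:87635729-87635978.
Snai1: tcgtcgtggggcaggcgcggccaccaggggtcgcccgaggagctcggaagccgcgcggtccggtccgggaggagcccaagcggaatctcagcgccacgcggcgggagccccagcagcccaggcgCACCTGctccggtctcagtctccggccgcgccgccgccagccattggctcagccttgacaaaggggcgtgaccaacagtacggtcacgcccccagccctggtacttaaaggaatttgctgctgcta
Epcam: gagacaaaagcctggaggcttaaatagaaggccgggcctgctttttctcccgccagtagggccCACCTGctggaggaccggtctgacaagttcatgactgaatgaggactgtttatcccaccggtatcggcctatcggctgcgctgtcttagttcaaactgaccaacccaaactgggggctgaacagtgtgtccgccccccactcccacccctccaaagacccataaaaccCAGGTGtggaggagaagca

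Snai1 has 1 such match, at chr2:167538069-167538074, and Epcam has 2, at chr17:87635792-87635797 and chr17:87635960-87635965. Of 32851 RefSeq windows of 250 bases, 17.2% hold at least 1 match and 2.06% hold 2 or more. The forkhead letters GTAAACA (on the other strand, these letters read TGTTTAC) were in 3.17% of windows and in none of the 8 member windows. The sequence table matched 5 of the 10 members (Snai1, Twist1, Zeb2, Epcam and Vim), and neither the Twist1, Zeb2 nor Vim windows hold the E-box letters. These matches describe letters, not binding.

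At Snai1 the summit lay inside the printed window in 10 of 12 libraries, 74 to 187 bp before the gene start and 0 to 61 bp from the E-box letters. Both libraries without it were those of KO day 10. At Epcam only iHA-Foxk1 day 3 replicate 1 and iHA-Foxk1 day 5 replicate 2 had a summit in the printed window, 142 and 135 bp before the start. All 8 libraries of days 3 and 5 had a summit inside Epcam, 710 to 918 bp past the start. At day 5 a region 22.4 kb below Epcam was better placed than that summit. It was at 59.3% and 36.4% of the iHA-Foxk1 lists and at 23.7% and 30.9% of the KO lists.

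Regions at gene ends were held by more libraries than the others. Of the 104 regions, 18 lay within 1 kb of a gene end, 38 further inside a gene and 48 outside. The median number of libraries holding a region was 6.5 at gene ends, 2.5 inside and 2 outside. Over all positions it was 2 for the members and 3 for the whole series. The whole series was not split by position, so the difference is not shown to be particular to these genes. Of all member regions 35 (33.7%) were in 1 library, beside 34.3% of all regions in the series. All 8 libraries of days 3 and 5 shared 9 member regions, 6 of them at gene ends. Of the 24 regions in 6 or more of those libraries, 10 were at gene ends, 8 inside a gene and 6 outside.

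**Figure D1:**
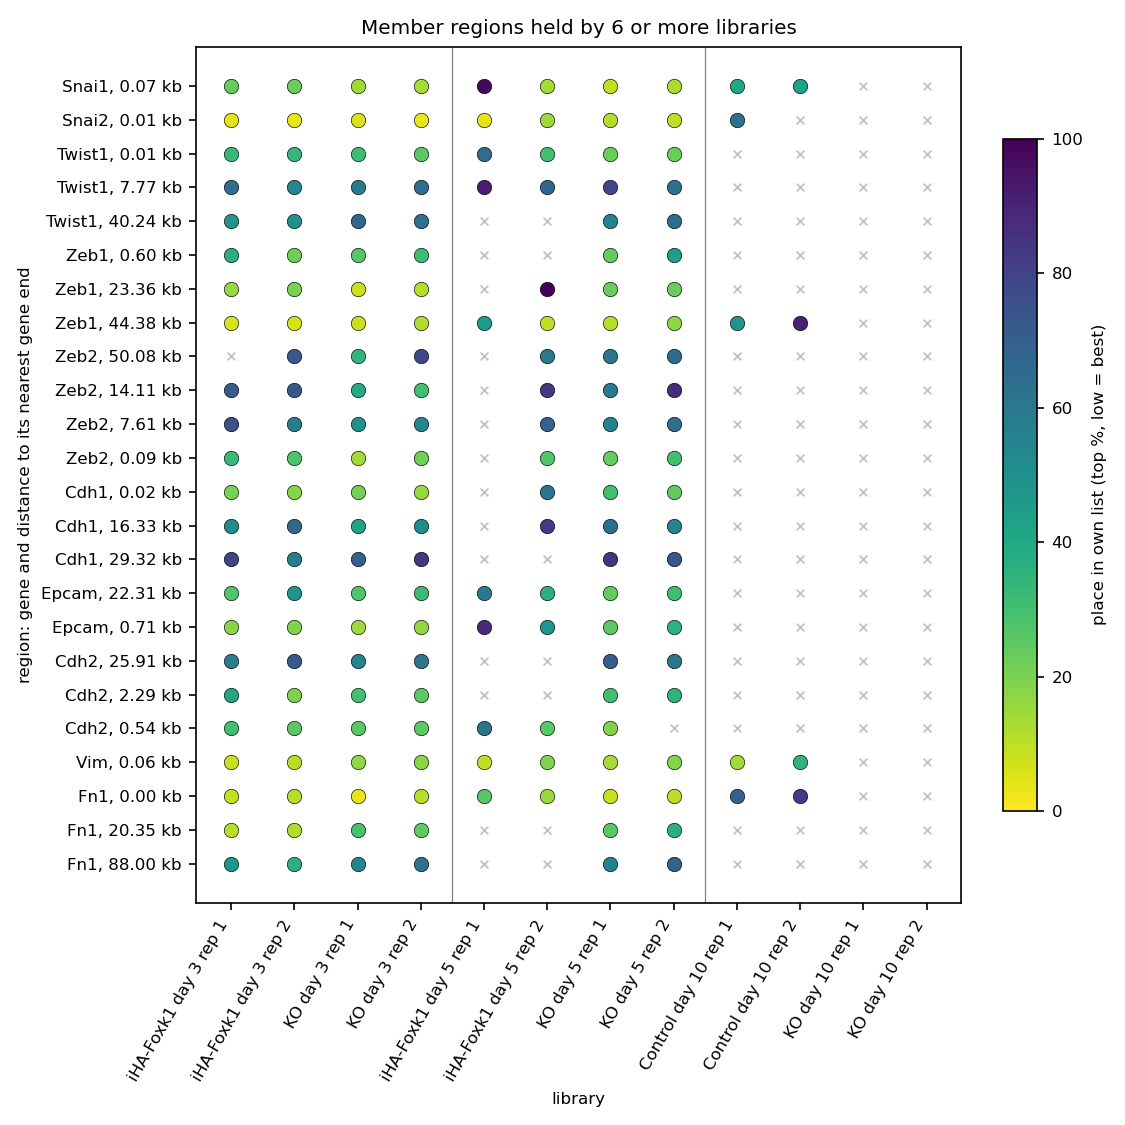
The 24 member regions held by 6 or more libraries (rows, named by gene and distance in kb to the nearest end of that gene) in each of the 12 libraries (columns). Colour gives the place of the summit in its own list as a top percentage, low being best, and a cross marks a library with no summit there. The columns of KO day 10 hold crosses only.

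Among the repressors, the end region of Snai2, the gene of the zinc finger factor Slug, was the best placed in all 4 day 3 lists. Its summit was in the top 4.13% and 3.51% of the list in iHA-Foxk1 day 3 and in the top 6% and 3.49% in KO day 3. At day 5 it was in the top 4.29% and 15% in iHA-Foxk1 and 11.5% and 9.95% in KO. The arms overlapped on both days. At day 10 only Control replicate 1 had it, at 62.6%.

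The Snai1 start region was at 23.5% and 22.8% of the list in iHA-Foxk1 day 3 and at 14.3% and 13.1% in KO day 3. At day 5 it was at 98% and 13.8% in iHA-Foxk1 and at 9.57% and 12.4% in KO, and in the Control day 10 lists at 40.5% and 42.5%. By rank, the day 3 arms did not overlap (12545 and 12323 in iHA-Foxk1, 8448 and 7009 in KO), and the day 5 arms did (14229 and 4691 in iHA-Foxk1, 4631 and 5215 in KO). The library at 98% is the one with the shortest list.

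Twist1 had an end region in all 8 libraries of days 3 and 5, from the top 22.7% to the top 64.9%, the latter again in iHA-Foxk1 day 5 replicate 1. A region that began 7.77 kb beyond its upper end was also in all 8, at 53.6% to 91.9%. Zeb1 had a region 44.4 kb beyond the upper end of the gene in all 8. That region was at 5.51% and 6.06% in iHA-Foxk1 day 3, 8.57% and 11.9% in KO day 3, 45.4% and 9.28% in iHA-Foxk1 day 5, and 11% and 17.3% in KO day 5. It was also in both Control day 10 lists, at 47.6% and 91%. Zeb2 had the most regions of any member, 28, and its end region was at 14% to 32.1% in 7 of the 8 libraries of days 3 and 5. A region inside Zeb2, 54.2 kb from its lower end, was better placed than the end region in 3 of the 4 day 3 lists.

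On the epithelial side, the region at the lower end of Cdh1 was at 20.7% and 18.1% in iHA-Foxk1 day 3 and at 21.1% and 16% in KO day 3, so the arms overlapped. At day 5 it was absent from iHA-Foxk1 replicate 1, at 60.8% in replicate 2, and at 30.2% and 24.5% in KO. The Epcam region inside the gene was at 17.7% and 19.1% in iHA-Foxk1 day 3 and 14.5% and 16.2% in KO day 3. At day 5 it was at 88.7% and 47.8% in iHA-Foxk1 and 25.6% and 35.9% in KO. By rank the Epcam arms overlapped at day 5, with 12877 and 16283 in iHA-Foxk1 and 12381 and 15120 in KO.

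Of the mesenchymal structural genes, Vim and Fn1 had the best-placed end regions. Vim was at 8.16% and 10.4% in iHA-Foxk1 day 3, 16.6% and 17.9% in KO day 3, 9.17% and 19.4% in iHA-Foxk1 day 5, and 13.2% and 18.7% in KO day 5. The day 3 arms did not overlap and the day 5 arms did. Fn1 was at 8.63% and 11.1% in iHA-Foxk1 day 3, 3.79% and 10.9% in KO day 3, 26.2% and 14.9% in iHA-Foxk1 day 5, and 8.53% and 10.9% in KO day 5. Cdh2 had an end region 0.54 kb inside the gene in 7 of these 8 libraries, at 19.1% to 61.5%. KO day 5 replicate 2 lacked that region but had another summit near the same end, at 19%.

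KO and control were then compared at day 3, with each list cut to 53456 summits. A region counted as reproducible when both libraries of at least 1 arm held it, and as KO-only or control-only when both libraries of that arm and neither of the other held it. Of 54 reproducible member regions, 12 (22.2%) were KO-only and 9 (16.7%) control-only, while over all 52273 reproducible regions the shares were 9.77% and 9.57%. Regions in all 4 libraries made up 50% of the member regions and 62% of all regions. Both directions were thus above the background, with no test run on the list.

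Most arm-specific member regions lay away from gene ends and low in the lists. Position and place were not worked out over all reproducible regions, so this is not shown to be particular to the members. Counting KO-only, control-only and shared regions in turn, those within 1 kb of a gene end numbered 1 of 12, 1 of 9 and 10 of 27. The mean place in the list had a median of 73.5% in the KO-only, 76.4% in the control-only and 29.1% in the shared regions. Summits of any score in the other arm were then looked for. The full iHA-Foxk1 day 3 lists held 53473 and 54100 summits, little more than the cut of 53456. At 250 bp, the search thus nearly repeated the rule behind the KO-only calls, and is no separate check of absence from iHA-Foxk1. The full KO day 3 lists held 59006 and 53456. Within 250 bp no such summit was found at 12 of 12 KO-only regions, nor at 8 of the 9 that were control-only. Within 1 kb there was none at 9 and 7 of them.

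**Figure D2:**
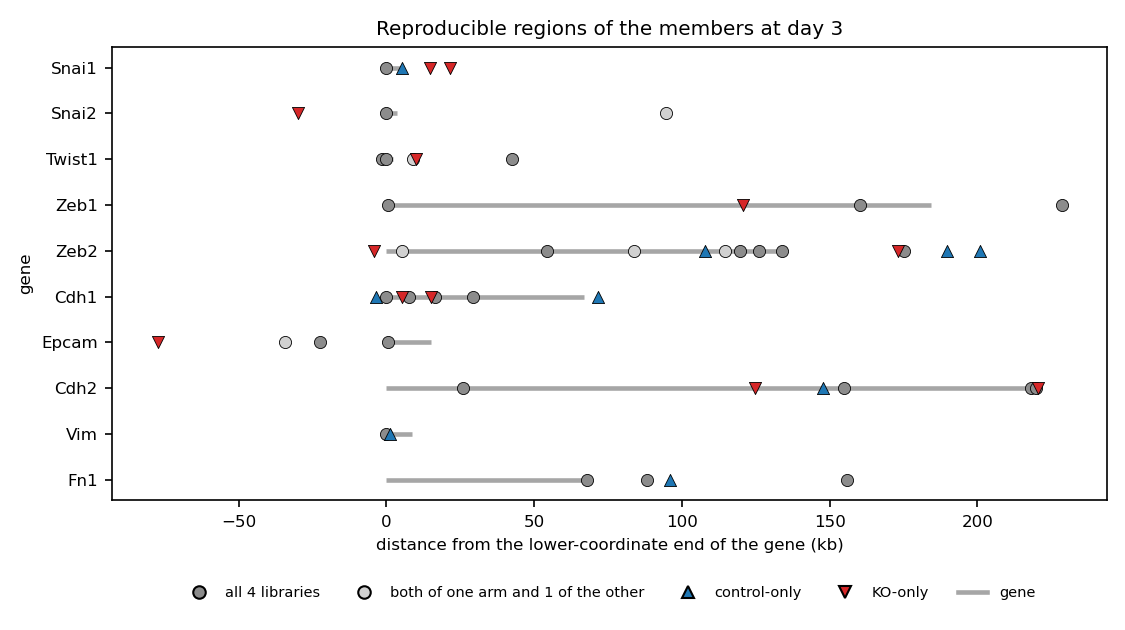
The 54 reproducible member regions at day 3, by distance in kb from the lower-coordinate end of each gene, with the gene as a grey bar. Upward triangles are the 9 control-only regions, downward triangles the 12 KO-only regions, dark circles the 27 regions in all 4 libraries, and light circles those in both libraries of 1 arm and 1 library of the other.

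The 5 repressor genes held 29 of the 54 reproducible regions, 7 of the 12 KO-only regions and 4 of the 9 control-only ones. Snai1 had a control-only region 542 bp beyond its upper end, at 52.2% and 35% of the iHA-Foxk1 lists. It also had 2 KO-only regions, 10.2 and 16.9 kb beyond that end. At day 5 the region near the upper end was in both KO lists, at 59.4% and 95.6%, and the KO-only region at 10.2 kb was in iHA-Foxk1 replicate 2, at 42.6%. Snai2 had a KO-only region 29.8 kb below the gene and Zeb1 a KO-only region inside the gene. The KO-only site of Twist1, 7.80 kb beyond its upper end, lies within the region described above that all 8 libraries of days 3 and 5 held once their summits were joined. The nearest iHA-Foxk1 day 3 summit was 297 bp away, just past the 250 bp limit. Zeb2 was divided, with 3 control-only and 2 KO-only regions of 13.

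The epithelial genes had 3 KO-only and 2 control-only regions of 12, and 6 regions in all 4 libraries. Cdh1 was divided evenly. Its KO-only regions lay 5.21 and 15.1 kb inside the gene, and its control-only ones 3501 and 4816 bp outside its ends. The latter had a KO day 3 summit of lower score 111 bp away. Epcam had a KO-only region 77.4 kb below the gene, at 34.4% and 42.9% of the KO lists.

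Cdh2 had 2 KO-only and 1 control-only regions of 7. The best-placed KO-only region of all members was 199 bp beyond its upper end, at 33.8% and 34.7%, and both iHA-Foxk1 lists had a summit within 1 kb of it, the nearest 799 bp away. Vim and Fn1 had a control-only region each, at 99.1% and 86.2% inside Vim and at 39.5% and 36.1% beyond the upper end of Fn1. Neither gene had a KO-only region at day 3.

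Summits per gene at day 3 were tested with limma across 16722 genes, of which 164 (0.981%) passed at an adjusted p of 0.05. None of the 10 members passed, and 2 had an unadjusted p under 0.05, as did 5.79% of all genes tested. The p-values used degrees of freedom summed over all genes, so they are too small where the variance is that of the gene itself. Vim had 3 and 2 summits in iHA-Foxk1 and 1 and 1 in KO, a difference of -0.98 ± 0.34 (SE) on the log2(summits + 0.5) scale, limma adjusted p = 0.159. Snai2 had 1 and 2 in iHA-Foxk1 and 3 and 4 in KO, a difference of 1.04 ± 0.411 (SE), limma adjusted p = 0.371. In neither gene did the arms overlap. Fn1 had 4 and 4 against 3 and 3, and Zeb1 3 and 3 against 4 and 5. Cdh1 (6 and 7 against 7 and 6) and Twist1 (5 in each library) had no difference in means of log2 values.

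How the spread was estimated decided whether a member passed. Summit numbers are small integers, and a pair of equal numbers has no variance. With a variance for each gene, as first planned, Fn1 passed at day 3 (limma adjusted p = 0.000982). With a variance taken from a trend Snai2 passed (limma adjusted p = 0.000111). The estimate used here, which is never below the variance of the gene itself, was adopted after those calls had been seen.

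**Figure D3:**
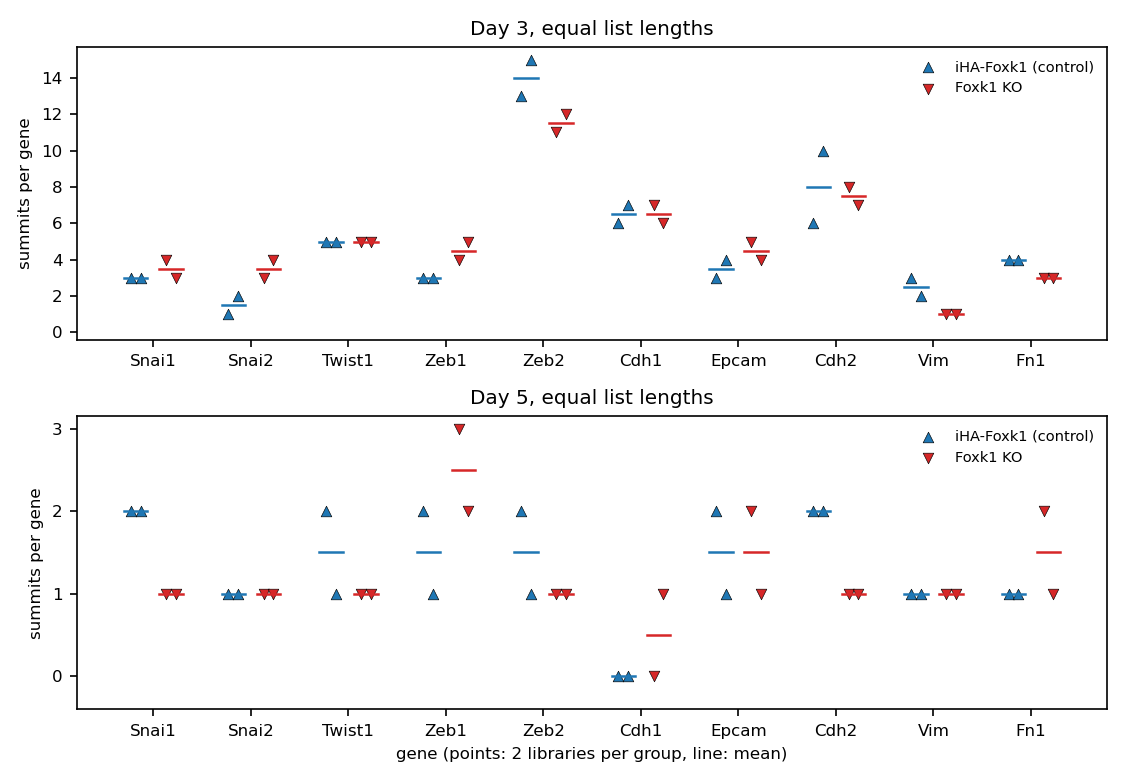
Summits per member gene in each library at equal list lengths, day 3 above (53456 summits a list) and day 5 below (14519). Upward triangles are the 2 iHA-Foxk1 libraries, downward triangles the 2 KO libraries, and lines the group means. At day 3 Snai2 and Zeb1 are higher in both KO libraries and Vim, Zeb2 and Fn1 higher in both iHA-Foxk1 libraries, none past the adjusted threshold.

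At day 5, with lists cut to 14519, 11 member regions were reproducible. Of these 1 was KO-only, in Zeb1, and 1 control-only, in Cdh2, while of all 14273 regions 12.1% had summits in KO only and 7.97% in control only. Snai1, Snai2, Zeb1, Epcam, Vim and Fn1 each had 1 region in all 4 libraries. The Zeb1 region, 23.6 kb inside the gene, had an iHA-Foxk1 summit of lower score, and the Cdh2 region had summits of lower score in both KO lists, so neither was absent from the full lists of the other arm. Without iHA-Foxk1 day 5 replicate 1, at 34040 summits a list, the counts were 13 control-only (31.7%) and 6 KO-only (14.6%), beside 27.6% and 19.9% of all regions, with iHA-Foxk1 day 5 then represented by 1 library. Without iHA-Foxk1 replicate 2 they were 7 and 3 (38.9% and 16.7%, beside 28.3% and 22.3% of all). Without KO replicate 1 they were 2 and 3 (15.4% and 23.1%, beside 9.38% and 19.3%), and without KO replicate 2 they were 1 and 3 (7.14% and 21.4%, beside 8.69% and 18.1%).

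No member passed the limma test at day 5, where 138 of 9644 genes (1.43%) did. None of the 9 tested members had an unadjusted p under 0.05, while 3.97% of all genes tested did. Cdh1, with 0, 0, 0 and 1 summits, was under the minimum mean of 1 summit. Snai1 and Cdh2 each had 2 and 2 summits in iHA-Foxk1 and 1 and 1 in KO, a difference of -0.74 ± 0.389 (SE), limma adjusted p = 0.645. With a variance for each gene both passed (limma adjusted p from 1.14e-26), in pairs without any spread. On simulated day 5 data the reported test found 2 of 100 genes that were set to fall by 8-fold. Each simulated gene kept at least 1 site, so genes with few summits fell by less than that. The test thus found few of the falls simulated, and its power for a full 8-fold fall was not measured.

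The balance of epithelial and mesenchymal summits was set out over the full lists. At day 3 Cdh1 and Epcam together had 1.68 and 2.03 summits per 10000 in iHA-Foxk1 and 2.2 and 1.87 in KO, and the arms overlapped. At day 5 they had 1.38 and 1.76 in iHA-Foxk1 and 2.48 and 2.37 in KO, while the mesenchymal genes had 8.95 and 8.52 in iHA-Foxk1 and 6.41 and 7.12 in KO. On day 5 the arms did not overlap on either side. At equal list length they did: the epithelial genes had 2 and 1 summits against 2 and 2, and the mesenchymal genes 13 and 10 against 11 and 9. No test was run on these sums. Over the full day 5 lists, 8 pluripotency genes had 2.76 and 4.7 summits per 10000 in iHA-Foxk1 and 6.41 and 6.65 in KO, and at equal length 4 and 5 summits against 3 and 3. A list of 6 visceral endoderm and other epithelial genes had 1.38 and 4.7 per 10000 against 3.72 and 4.04, and at equal length 2 and 4 summits against 4 and 5. The part of such cells in the epithelial values was not tested.

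**Figure D4:**
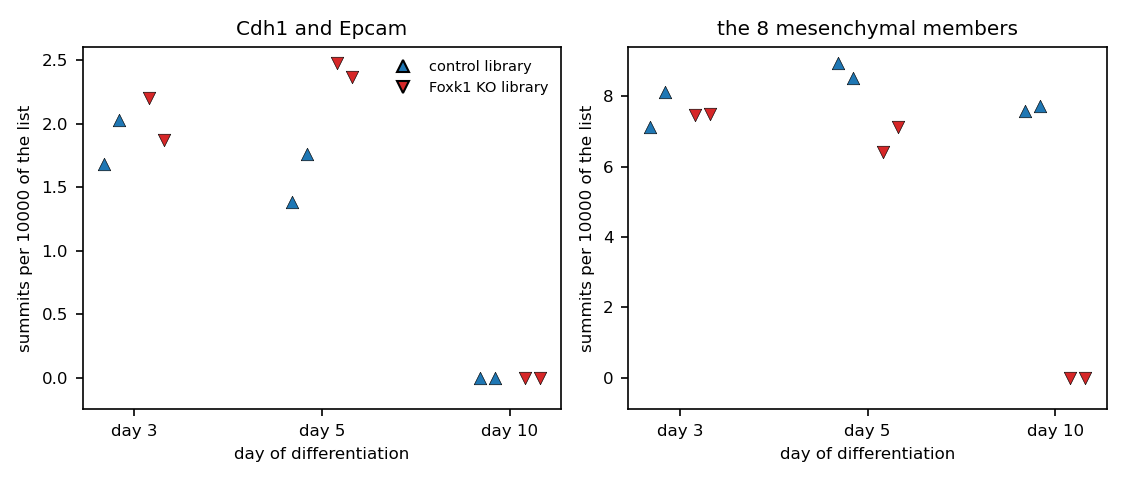
Summits of Cdh1 and Epcam (left) and of the 8 mesenchymal genes (right) per 10000 summits of the full list, by day, 1 point a library. Upward triangles are control libraries (iHA-Foxk1 at days 3 and 5, Control at day 10) and downward triangles KO libraries. Epithelial summits are at 0 in all 4 day 10 libraries, and mesenchymal summits at 0 in both KO day 10 libraries.

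Fibroblast genes bear on the mesenchymal side because of the feeder cells. A list of 14 fibroblast genes had 5.61 and 5.55 summits per 10000 in iHA-Foxk1 day 3 and 6.44 and 5.43 in KO day 3. It had 7.58 and 11.8 in iHA-Foxk1 day 5 and 6.2 and 7.12 in KO day 5, with 5 of 14 genes holding a summit in iHA-Foxk1 replicate 1 and 11 or 12 in the other day 5 libraries. At equal length it had 11 and 8 summits in iHA-Foxk1 day 5, in 5 and 7 genes, and 3 and 2 in KO day 5, in 2 genes each. S100a4, which is also in a mesenchymal list below, was at 0 in all of them. The part of these cells in the day 5 values was not tested.

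At day 10, no member region was reproducible at 4028 summits a list, where 11.8% of 3634 regions were control-only and 9.88% KO-only. In the full lists the Control libraries held 8 and 6 member summits, in 7 and 5 genes, and both KO libraries held 0. All 14 belonged to mesenchymal genes. The epithelial side is only 2 genes. In wider lists described below, 26 epithelial junction and keratin genes held 12 and 8 summits in the full Control lists and 1 and 4 in KO. Per 10000 these were 11.4 and 10.3 against 2.48 and 8.41. The 21 mesenchymal adhesion and matrix genes held 7 and 8 in Control and 3 and 6 in KO. Per 10000 these were 6.64 and 10.3 against 7.45 and 12.6. Among the members, Vim was the best placed, at 14% and 35.3%. Vim had a summit within the first 4028 in both Control lists, but 328 bp apart and so not joined. Snai1 had ranks 4277 and 3300, on either side of the limit of 4028. Counted over full lists, 5 member regions were control-only, at Snai1, Zeb1, Cdh2, Vim and Fn1, beside 35% control-only and 1.65% KO-only of all 6744 regions. The KO lists were also the shorter ones, with 4028 and 4755 summits against 10548 and 7764, so a shorter list and fewer member summits cannot be told apart there. All 9 mesoderm marker genes were at 0 in all 4 lists. Of the 14 fibroblast genes, 1 (Col5a1) had a summit in Control replicate 1, and all were at 0 in the other 3 lists.

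Days 3 and 5 were compared within each genotype at 14519 summits a list. In iHA-Foxk1, 4 of 13 member regions were day 3-only and 1 was day 5-only, beside 22.5% and 13.4% of all 15158 regions. The day 3-only regions were a Fn1 region 20.4 kb beyond the gene, a Zeb1 and a Zeb2 region inside those genes, and the Cdh1 end region. The Fn1 region was at 10.9% and 11.7% in the day 3 lists and absent from both full iHA-Foxk1 day 5 lists. In KO, 1 of 12 regions was day 3-only and 1 day 5-only, beside 10.1% and 9.63% of all 15445.

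The KO day 3-only region was the Zeb2 region inside the gene that was also day 3-only in iHA-Foxk1. It was at 24.8% and 19.7% in iHA-Foxk1 day 3, at 16.9% and 13.1% in KO day 3, and in no list of day 5 or 10. The KO day 5-only region, below Epcam, had day 3 summits of lower score. Without iHA-Foxk1 day 5 replicate 1, the iHA-Foxk1 counts became 11 day 3-only (23.9%) and 17 day 5-only (37%), beside 24.5% and 31.1% of all regions.

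No member passed limma for the day change. In iHA-Foxk1 326 of 7938 genes (4.11%) passed. An unadjusted p under 0.05 was found for 1 of the 8 tested members, beside 13.5% of all genes tested. The member was Snai1, with 1 and 1 summits at day 3 and 2 and 2 at day 5 (limma adjusted p = 0.323). In KO 79 genes (0.995%) passed and no member had an unadjusted p under 0.05, while 4.57% of all genes tested did. The day change differed between genotypes for 106 genes (1.34%) and for no member. Zeb2 had the smallest member p there, with a difference of -1.11 ± 0.548 (SE), limma adjusted p = 0.867. With pooled variances that left out that of the gene itself, Cdh2 passed in iHA-Foxk1 (limma adjusted p = 0.00153), on 0 and 2 summits at day 3 against 2 and 2 at day 5. With a variance for each gene, Snai1 passed for the iHA-Foxk1 day change and for the difference between genotypes.

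Other genes of the transition were described by 4 wider lists at day 3. Mesenchymal adhesion and matrix genes (21 genes, among them the cadherin gene Cdh11 and the integrin gene Itgb3) had 83 regions, of which 16 (19.3%) were control-only and 13 (15.7%) KO-only. Other inducers and signalling genes (37 genes) had 171 regions, with 25 (14.6%) control-only and 18 (10.5%) KO-only. Epithelial junction and keratin genes (26 genes) had 75 regions, with 4 (5.33%) control-only and 7 (9.33%) KO-only. Keepers of the epithelial state (14 genes, such as Foxa1, Grhl3 and Ovol2) had 67 regions, with 5 (7.46%) control-only and 8 (11.9%) KO-only. The shares for all regions at day 3 were 9.57% and 9.77%.

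At day 5 the mesenchymal adhesion and matrix list had 4 control-only regions of 18, at Mmp2, Acta2, Tnc and Itgb3, and 0 KO-only. The other inducers had 4 control-only and 1 KO-only of 38. The epithelial junction list had 3 of each among 23, and the keepers 2 of each among 9. Of all day 5 regions, 7.97% were control-only and 12.1% KO-only. The mesoderm markers were 9 genes, such as Mixl1 and Tbx6, that are known from the primitive streak. Of their 33 regions at day 3, 11 (33.3%) were control-only and 3 (9.09%) KO-only. The shares of all day 3 regions were 9.57% and 9.77%. A control-only Mixl1 region (chr1:180697351-180697417) lay close to a KO-only one (chr1:180696797-180696931), just too far to be joined. At equal length the list had 34 and 36 summits in iHA-Foxk1 day 3 and 25 and 26 in KO day 3. All 9 genes had a summit in each iHA-Foxk1 day 3 library and 8 of 9 in each KO day 3 library. At day 5 it had 7 and 9 summits in iHA-Foxk1 and 3 and 2 in KO. Whether the mesoderm share of the cells has a part in the member values was not tested.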

How the data were processed

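The deposited files are 1 list of ATAC-seq peak summits per library, with a −log10 p-value or q-value as the score of each summit (which of the pair is not given in the sources used here). The mm10 build, MACS2 and Bowtie2 2.2.4 are named in the submitters' processing notes. Lists hold no read counts, so scores served only to rank summits within a list. Chromosomes 1 to 19 and X were used, with 21631 protein-coding genes of RefSeq (GRCm38.p6). Summits were merged at 250 bp. Alternatives were other merging distances, list lengths, absence rules, gene windows and left-out libraries.

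The members and gene lists were chosen with earlier results of these data known. Members are all named, and other genes mostly as the first of a list. S100a4 and Col5a1 were named after their values were seen, and so were the example genes of the wider lists. All 135 list symbols matched.

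Summits per gene, as log2(summits + 0.5), were fitted with limma (lmFit) over genes with a mean of at least 1 summit, with Benjamini-Hochberg adjustment. The planned limma fit, with a moderated variance per gene, was replaced, because equal small integers give a variance of 0. In all 4 variance rules were run, each with the members' values and calls in view: per gene, a lowess trend, pooled over genes, and pooled but never below that of the gene itself, which is the one reported. It was kept for its false calls on simulated data, and the simulation itself had been changed once on the way, from Poisson numbers to sites found with a fixed probability. For day 3, 200 of 16113 genes were set to change by 8-fold. Unchanged genes called numbered 10 under the rule used, 121 under pooling alone, 1010 under the trend and 857 per gene. Of the changed genes, 97 of 100 that rose and 15 of 100 that fell were found, so the test has little power for falls. For day 5 (10944 genes) the false calls were 4, 117, 2 and 260. There the rule used found 98 of 100 that rose and 2 of 100 that fell. Because the choice followed the members' results, that no member passed is not independent of it. Under all rules but the per-gene one, p-values used the residual degrees of freedom summed over all genes tested. That held even where the variance was the gene's own, so such p-values are too small. The numbers of genes passing may thus be too high. Tools were R 4.3.3, limma 3.58.1 and Python 3.11.15.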

Additional observations from a re-analysis of the deposited data

How the results depend on the processing

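Of 182 alternative values over 15 counts, 124 stayed within 1.5 times the reported one. The 5 limma counts and both day 10 counts were 0, and for these staying within it means only 0 again. For each region count above 0, 1 to 6 of the 7 settings other than left-out libraries stayed within it. The small counts of member regions moved with list length. At N divided by 2, day 3 had 4 control-only (16%) and 3 KO-only (12%) of 25 member regions. Of all regions, 9.13% and 9.1% were so called. Both day 5 counts were 0 of 4, beside 4.48% control-only and 5.18% KO-only of all. The day change in iHA-Foxk1 gave 1 day 3-only and 0 day 5-only of 5, beside 18.5% and 12.2% of all. In KO it gave 0 day 5-only of 5, beside 13.6%. With all summits, the counts were 12 KO-only at day 5, 5 control-only at day 10, 20 day 3-only and 3 day 5-only in iHA-Foxk1, and 10 day 3-only and 3 day 5-only in KO. Beside them, of all regions 36.9%, 35%, 48%, 2.65%, 17.2% and 5.43% were called in the same order, against 35.3%, 100%, 46.5%, 6.98%, 20.8% and 6.25% of the member regions. Absence judged on full lists, or within 1 kb, left 0 control-only and 0 KO-only regions of 11 at day 5. Of all regions, 1.58% and 7.35% were then called on full lists, and 1.16% and 6.56% within 1 kb. Both rules left 0 day 5-only regions in either genotype. The shares of all regions were 3.32% and 2.68% in iHA-Foxk1 and 0.699% and 0.104% in KO. Absence within 1 kb left 2 day 3-only regions of 13 in iHA-Foxk1 (15.4%, beside 14.6%). Merging at 100 bp gave 0 KO-only regions of 7 at day 5, beside 13.2% of all. Merging at 500 bp gave 1 control-only region of 1 at day 10, beside 11.6%. Both gave 2 day 5-only regions in iHA-Foxk1, of 10 and 14 (20% and 14.3%, beside 9.99% and 14.9%). The cause was not tested.

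Leaving out 1 library at a time gave, at day 3, 11 to 19 control-only and 12 to 21 KO-only regions. The control-only regions were 19 and 18 without iHA-Foxk1 replicate 1 and 2, and the KO-only regions 21 without KO replicate 2. The control-only share was 18% to 28.4% of member regions, beside 11.5% to 19.8% of all regions. The KO-only share was 17.9% to 33.3%, beside 13.1% to 18.6%. At day 5, leaving out a library gave 1 to 13 control-only and 3 to 6 KO-only regions, with the shares given above. At day 10 it gave 0 to 2 control-only (2 and 1 without Control replicate 1 and 2, and 1 without KO replicate 1). These 3 settings had no other member region, beside 23.4%, 22.7% and 15.6% control-only of all regions. The day change ranged from 4 to 11 day 3-only and 2 to 17 day 5-only regions in iHA-Foxk1 and from 1 to 3 of each in KO. In iHA-Foxk1 the shares were 21.1% to 40% and 13.3% to 37%, beside 24.5% to 28.8% and 14.9% to 32% of all. In KO they were 8.33% to 21.4% and 6.67% to 21.4%, beside 13% to 15.1% and 13.2% to 15.2%. An arm of 1 library needs no second library to hold a region. Leaving out iHA-Foxk1 day 5 replicate 1 also raised N from 14519 to 34040, so 2 choices changed there at once.

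Members passing limma were 0 in all 5 comparisons as reported. They were 1, 2, 1, 0 and 1 with a variance per gene, in the order KO against control at day 3, at day 5, day change in iHA-Foxk1, in KO, and its difference between genotypes. They were 1 (Snai2), 0, 0, 0 and 0 with the trend, and 0, 0, 1 (Cdh2), 0 and 0 with pooling alone. The variance per gene was the planned rule, while the trend, pooling alone and the rule reported were all chosen after seeing the data. Without iHA-Foxk1 day 3 replicate 2, 1 member (Snai2, limma adjusted p = 0.0145) passed at day 3, a range of 0 to 1, and with all summits 1 (Cdh1, limma adjusted p = 0.0211) passed for the iHA-Foxk1 day change. Whether replicate numbers pair the libraries is unknown. The correlation of replicate differences between arms was -0.0138 at day 3 and 0.00997 at day 5. Small summit numbers from 1 pair of libraries an arm cannot settle it. With the replicate number as a block 0 members passed in each of the 5. Depth is unknown, so a missing summit is not evidence of closed chromatin.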
